A study of Homo sapiens with 48 samples.

Results

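HMGCS1, IDI1, FDPS, FDFT1, SQLE, LSS and DHCR7 encode enzymes of cholesterol synthesis, and INSIG1 encodes a sterol-responsive inhibitor of the same pathway. These 8 genes were chosen by symbol, with earlier results of these data known, so counts of members called are not an independent test. All 8 were present among the 11145 genes with ribosome-protected fragments (RPFs) and the 11947 genes with total RNA. None of the 8 takes up cholesterol from outside the cell, so uptake genes were examined as a separate list. The cells were SW480, a human colorectal adenocarcinoma line with mutant APC, transduced with 3 doxycycline (DOX)-inducible shRNAs. The shRNA shCTRL is non-targeting, shEIF2B1 is directed against eIF2Bα and shEIF2B4 against eIF2Bδ, 2 subunits of the exchange factor that recycles eIF2. Each line was a selected pool of lentivirally transduced cells rather than a clone. Uninduced cells received DMSO (-DOX) and induced cells 1 µg/ml DOX over 5 days (+DOX). Every group had 4 replicates from separate weeks, and each of the 24 lysates yielded an RPF library and a library of total cytoplasmic RNA.

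Cholesterol is built from acetyl-CoA through mevalonate, isoprenoid diphosphates, squalene and lanosterol. Transcription of most of these enzymes is driven by SREBP2, a membrane-bound factor that SCAP escorts from the endoplasmic reticulum to the Golgi when sterols are scarce, where it is cleaved. When sterols are plentiful, INSIG proteins hold SCAP in the endoplasmic reticulum, and oxysterols activate LXR, which raises the exporters ABCA1 and ABCG1. INSIG1 is itself a target of SREBP, so its mRNA usually follows that of the enzymes.

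On GRCh38, HMGCS1 spans chr5:43289395-43313512, IDI1 chr10:1039152-1049170, INSIG1 chr7:155297776-155310235, FDPS chr1:155308748-155320666, LSS chr21:46188141-46228824 and DHCR7 chr11:71428193-71452868 in GENCODE v29. Promoter sequences were available for 6 of the 8 genes in the RefSeq table on GRCh38.p14. In all 6, the 250 bases before the start held CCAAT or its reverse complement ATTGG, the box bound by NF-Y, a partner of SREBP, against 32.0% of 35116 promoters of that length. The sterol element TCACCCCAC, searched on both strands, was in none of the 6 and in 0.362% of all promoters, which says only that these letters are not in these windows. Its looser form TCACNNNAC was in 2 of the 6, INSIG1 and FDPS, against 8.51% of all promoters, and CACGTG was in 1, against 6.34%. The 4 sequences below belong to 3 genes that fell on shEIF2B1 induction and to LSS, which did not pass the test. Each ends at the base before the transcript start in GENCODE v29, reads 5′ to 3′ in the direction of the gene, and has CCAAT or ATTGG in capitals. They lie at chr5:43313513-43313662 (minus strand, HMGCS1), chr10:1049171-1049369 (minus strand, IDI1), chr7:155297628-155297775 (plus strand, INSIG1) and chr21:46228825-46229024 (minus strand, LSS).
HMGCS1: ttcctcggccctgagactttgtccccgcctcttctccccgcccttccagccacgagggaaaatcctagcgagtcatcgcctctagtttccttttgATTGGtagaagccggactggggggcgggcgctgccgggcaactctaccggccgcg
IDI1: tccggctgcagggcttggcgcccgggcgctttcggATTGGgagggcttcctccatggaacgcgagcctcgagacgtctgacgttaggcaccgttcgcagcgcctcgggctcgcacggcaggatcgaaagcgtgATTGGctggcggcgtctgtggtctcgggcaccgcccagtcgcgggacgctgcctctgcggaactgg
INSIG1: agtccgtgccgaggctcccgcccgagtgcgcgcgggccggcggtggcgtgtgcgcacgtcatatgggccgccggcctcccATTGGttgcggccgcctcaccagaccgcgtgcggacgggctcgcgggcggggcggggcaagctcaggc
LSS: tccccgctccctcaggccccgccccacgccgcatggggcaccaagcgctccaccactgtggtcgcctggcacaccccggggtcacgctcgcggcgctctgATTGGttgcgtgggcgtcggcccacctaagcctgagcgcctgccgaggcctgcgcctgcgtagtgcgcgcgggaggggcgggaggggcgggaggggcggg
The printed part of IDI1 holds the box 2 times, and those of HMGCS1, INSIG1 and LSS hold it 1 time each. All 6 promoters hold the box, so its presence could not set genes apart, and its relation to the responses was not tested. SQLE and FDFT1, which also fell, had no promoter sequence available.

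Values are on the regularized log2 scale the authors gave them, with the RPF and the total RNA libraries scaled apart. No read counts are given, the depth behind each value is unknown, and levels are compared here only within a gene. Translational efficiency (TE), in log2 units, is the RPF value of a lysate less its total RNA value. A response is the change from -DOX to +DOX in a knockdown line minus the same change in shCTRL, and a gene was called at a limma adjusted p under 0.1 across all genes. EIF2B1, the targeted gene, fell on shEIF2B1 induction, with a response of -0.67 in total RNA (adjusted p = 0.026) and -0.53 in RPFs (adjusted p = 0.011). EIF2B4 fell on shEIF2B4 induction in total RNA, with a response of -0.49 (adjusted p = 0.063), while in RPFs its response of -0.48 did not pass the test (adjusted p = 0.24). Of 7 epithelial markers, 6 were listed in both tables, among them EPCAM and KRT8, and none of 9 markers of blood, vessel, stroma and liver cells was listed. The mean over all genes was 6.99 to 7.02 in shEIF2B4 RPF libraries and 7.12 to 7.14 in shCTRL RPF libraries. In bulk lysates, fewer cells of a kind and less RNA per cell cannot be told apart.

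On shEIF2B1 induction, HMGCS1, SQLE, IDI1, FDFT1 and INSIG1 fell in both total RNA and RPFs, whereas FDPS, LSS and DHCR7 did not pass the test in either. In total RNA 5 of 8 genes were lower and none was higher, against 1.13% of all genes called lower and 3.47% called in either direction. In RPFs 5 of 8 were lower, against 15.3% of all genes called lower and 27.3% called in either direction. The median response of the 8 genes was -0.50 in total RNA and -0.50 in RPFs, and that of all genes was -0.00 and -0.01. For log2 TE, 0 of 8 genes were called by limma, 0 had an unadjusted p under 0.05, and 7.1% of all genes were called.

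**Figure D1:**
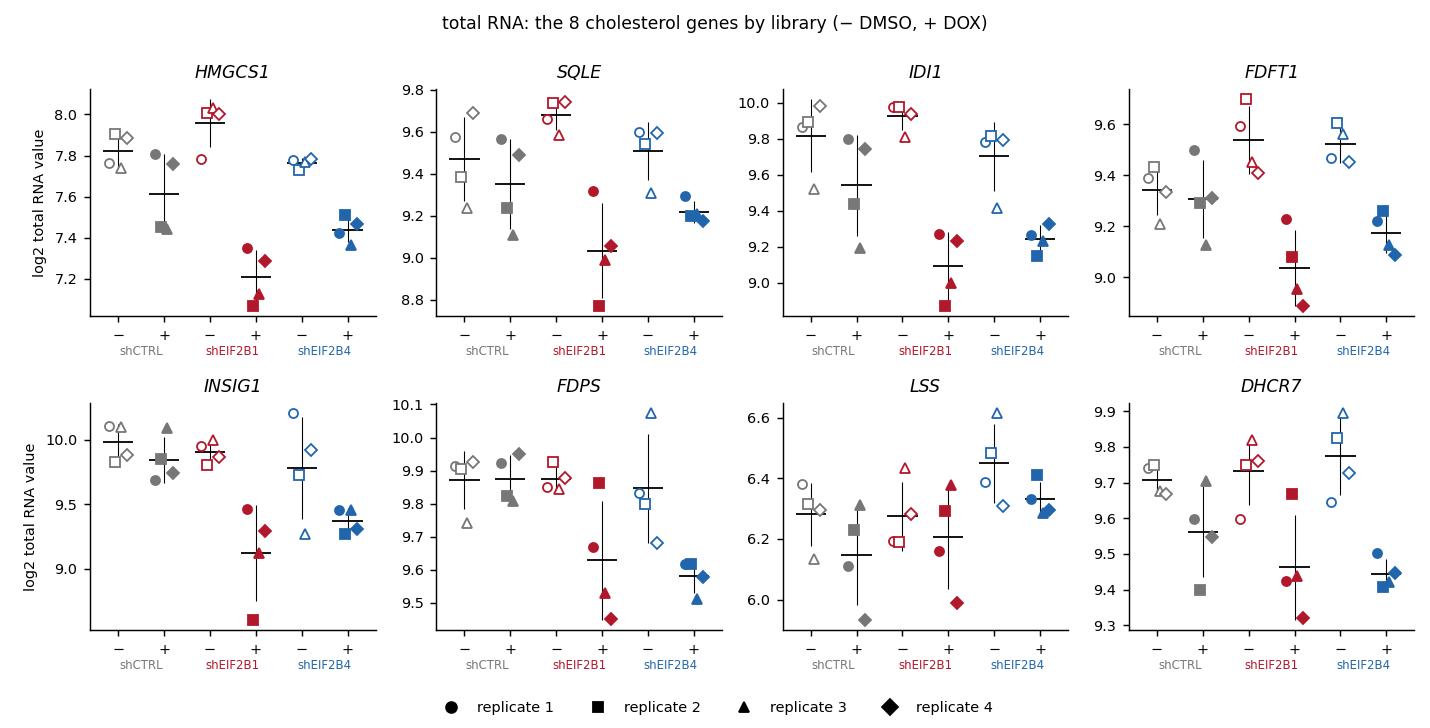
Log2 total RNA values (vertical axes, each gene on its own scale) of the 8 genes in 24 libraries, by line and treatment on the horizontal axis, with open points for -DOX (DMSO) and filled points for +DOX. Point shape marks the replicate, horizontal bars are means and vertical lines 1 SD (n = 4). In shEIF2B1 the +DOX points of HMGCS1, SQLE, IDI1, FDFT1 and INSIG1 all sit below the -DOX points.

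HMGCS1 makes HMG-CoA from acetyl-CoA units, early in the pathway. Its log2 total RNA value in uninduced shEIF2B1 cells was 7.78, 8.01, 8.03 and 8.00 in replicates 1 to 4, and 7.35, 7.07, 7.12 and 7.29 after induction. In shCTRL it was 7.76, 7.90, 7.74 and 7.88 uninduced and 7.81, 7.45, 7.44 and 7.76 induced. The shEIF2B1 groups did not overlap, and the shCTRL groups did. The response was -0.54 in total RNA (SE 0.13, adjusted p = 0.040) and -0.78 in RPFs (SE 0.20, adjusted p = 0.012), and was below 0 in 4 of 4 replicates in both.

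IDI1 interconverts the 5-carbon isoprenoid units that all later intermediates are made of. Its log2 total RNA value in shEIF2B1 cells was 9.98, 9.98, 9.81 and 9.94 uninduced and 9.27, 8.87, 9.0 and 9.23 induced, with no overlap. In shCTRL it was 9.87, 9.89, 9.52 and 9.98 uninduced and 9.80, 9.44, 9.19 and 9.74 induced, and these groups overlapped. Its response of -0.80 in RPFs (SE 0.17, adjusted p = 0.0038) was the most negative of the 8, beside -0.56 in total RNA (SE 0.13, adjusted p = 0.025). IDI1 was also the only member called with DOX in shCTRL total RNA, lower by 0.27 (adjusted p = 0.097), where 4.44% of all genes were called and 2.18% were lower.

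FDFT1, squalene synthase, commits the isoprenoid chain to sterols, and SQLE, squalene epoxidase, adds the first oxygen. The log2 total RNA value of FDFT1 in shEIF2B1 cells was 9.59, 9.70, 9.45 and 9.41 uninduced and 9.23, 9.08, 8.95 and 8.89 induced. That of SQLE was 9.66, 9.74, 9.58 and 9.74 uninduced and 9.32, 8.77, 8.99 and 9.06 induced. Neither gene overlapped between the treatments, and in shCTRL both did. FDFT1 had the most even response of the 8 across replicates, -0.42 to -0.50 in total RNA and -0.42 to -0.54 in RPFs, with means of -0.47 (adjusted p = 0.023) and -0.49 (adjusted p = 0.010). The response of SQLE was -0.53 in total RNA (adjusted p = 0.037) and -0.50 in RPFs (adjusted p = 0.021).

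INSIG1 had the largest response of the 8 in total RNA, -0.65 (SE 0.16, adjusted p = 0.051), and a response of -0.57 in RPFs (SE 0.21, adjusted p = 0.058). Its log2 total RNA value in shEIF2B1 cells was 9.95, 9.81, 10.00 and 9.87 uninduced and 9.47, 8.61, 9.13 and 9.29 induced. In shCTRL it was 10.11, 9.83, 10.10 and 9.88 uninduced and 9.69, 9.85, 10.09 and 9.74 induced. In shEIF2B4 it was 10.21, 9.73, 9.27 and 9.92 uninduced and 9.45, 9.27, 9.46 and 9.31 induced. The induced values of shEIF2B1 and of shEIF2B4 lay below every shCTRL value of either treatment. INSIG1 was also the least even, with replicate responses to shEIF2B1 of -0.06, -1.22, -0.87 and -0.44 in total RNA and -0.21, -0.50, -1.23 and -0.37 in RPFs.

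FDPS, which makes farnesyl diphosphate, LSS, which closes squalene epoxide into lanosterol, and DHCR7, which reduces a late sterol precursor, did not pass the test for either knockdown. With shEIF2B1 their responses in total RNA were -0.25 (95% CI -0.48 to -0.02), 0.07 (-0.20 to 0.34) and -0.12 (-0.37 to 0.13), in that order. In RPFs they were -0.21 (-0.43 to 0.02), -0.03 (-0.37 to 0.31) and -0.01 (-0.26 to 0.23). The interval of FDPS in total RNA lay below 0, though it did not pass the adjusted test, and the other intervals do not exclude small falls. No interval reached the response fitted for IDI1, -0.80 in RPFs and -0.56 in total RNA. DHCR7 was the only member called with DOX in shCTRL RPFs, lower by 0.39 (adjusted p = 0.050), where 9.85% of all genes were called and 4.62% were lower, and its RPFs fell by 0.40 within shEIF2B1 as well (adjusted p = 0.0018). Leaving out replicate 2, 3 or 4 left 0 members called in shCTRL in either measure by limma. At an unadjusted p under 0.05 there were 1 to 3. In these fits 0.0269% to 0.0359% of all genes were called in RPFs and 0.0251% to 1.39% in total RNA. Leaving out replicate 1 gave 4 members in RPFs and 2 in total RNA, where 31.6% and 20.5% of all genes were called.

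The calls in total RNA depended on which replicate was left out. Leaving out replicate 1, 2, 3 or 4 left 2, 5, 2 and 0 members called in total RNA and 5, 5, 4 and 3 in RPFs, where 0.117% to 1.97% and 7.59% to 13.2% of all genes were called lower. Without replicate 4, 5 of 8 members still had an unadjusted p under 0.05 in total RNA, and the responses ran from -0.72 for INSIG1 to 0.07 for LSS. Without replicate 2, INSIG1 dropped to -0.45 in total RNA and was no longer called, and FDPS was called lower at -0.34.

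**Figure D2:**
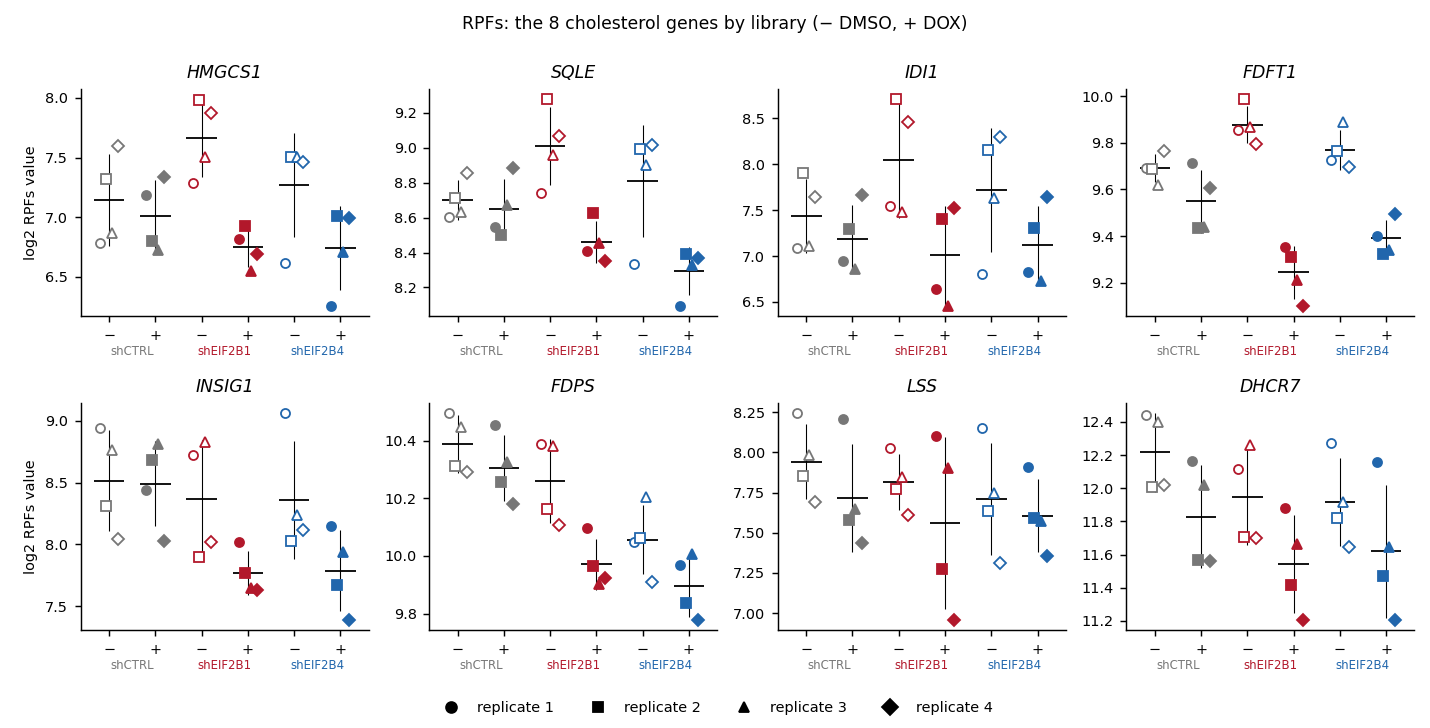
Log2 RPF values (vertical axes, each gene on its own scale) of the 8 genes in 24 libraries, laid out as in the plot of total RNA, with replicates by point shape, means as bars and 1 SD as lines (n = 4). IDI1 is higher in replicates 2 and 4 than in replicates 1 and 3 in all 6 groups, and DHCR7 is lower.

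In both knockdown lines fewer members separated the treatments in RPFs than in total RNA, and the share of all genes that did so was lower too. In shEIF2B1 cells the +DOX values lay below all -DOX values for HMGCS1, SQLE, FDFT1 and FDPS, 4 of 8 genes, where 7.78% of all genes did the same. In total RNA this held for HMGCS1, SQLE, IDI1, FDFT1 and INSIG1, 5 of 8, against 14% of all genes. In shEIF2B4 total RNA it held for all but INSIG1 and LSS, 6 of 8, against 12% of all genes, and in shEIF2B4 RPFs for FDFT1 alone, 1 of 8, against 2.64%. In shCTRL it held for none of the 8 in either measure, against 1.94% in RPFs and 3.26% in total RNA. The log2 RPF value of IDI1 in shEIF2B1 cells was 7.55, 8.71, 7.48 and 8.47 uninduced and 6.64, 7.40, 6.46 and 7.52 induced. These groups overlapped through replicate 3 of the uninduced cells, while within each replicate the induced value was 0.90 to 1.3 lower.

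RPF values of several of the 8 genes split the replicates, in opposite directions. IDI1 was higher in replicates 2 and 4 than in replicates 1 and 3 in 6 of 6 groups, by 0.82 on average. DHCR7 was lower in replicates 2 and 4 in 6 of 6 groups, by 0.36 to 0.56, and LSS was so in 5 of 6 groups. INSIG1 and FDPS were lower in both replicates 2 and 4 in 4 of 6 groups, SQLE was higher in 4 of 6 and HMGCS1 in 3 of 6. FDFT1 showed no such split in any group. In total RNA no gene showed such a split in more than 3 of 6 groups. The split was noticed after the values were seen, and its part in the results was not tested. Responses were fitted with the replicate as a block, which removes it where it is shared by all groups.

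With shEIF2B4, 0 of 8 members were called by limma in total RNA, where 5.4% of all genes were called, and 0 of 8 in RPFs, where 2.75% were. At an unadjusted p under 0.05 there were 2 of 8 in total RNA, FDFT1 and FDPS, and 2 of 8 in RPFs, SQLE and INSIG1. The most negative response in total RNA was that of FDFT1, -0.31 (95% CI -0.53 to -0.10, adjusted p = 0.10), below 0 in 4 of 4 replicates. In RPFs it was that of INSIG1, -0.55 (-1.0 to -0.10, adjusted p = 0.22), followed by SQLE at -0.47 (-0.79 to -0.14, adjusted p = 0.15). Without replicate 1, SQLE, IDI1 and INSIG1 were called lower in RPFs, at -0.56, -0.52 and -0.59, where 8.17% of all genes were called lower. In that replicate the uninduced shEIF2B4 library was the lowest of its group for HMGCS1 (6.61 against 7.46 to 7.50) and SQLE (8.34 against 8.90 to 9.01).

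Before the shCTRL change was taken off, the members did fall within the shEIF2B4 line. From -DOX to +DOX, 7 of 8 were called lower in total RNA, by 0.27 for FDPS to 0.46 for IDI1, against 16.3% of all genes called lower. LSS, at -0.12, did not pass. In RPFs 6 of 8 were called lower, against 12% of all genes, and FDPS at -0.16 and LSS at -0.10 did not pass. Within shEIF2B1 the same comparison gave 7 of 8 in total RNA and 8 of 8 in RPFs, against 16.8% and 26.7% of all genes called lower. These changes include any effect of DOX itself, and the change in shCTRL ran from -0.27 to 0.00 in total RNA and from -0.39 to -0.02 in RPFs over the 8 genes.

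**Figure D3:**
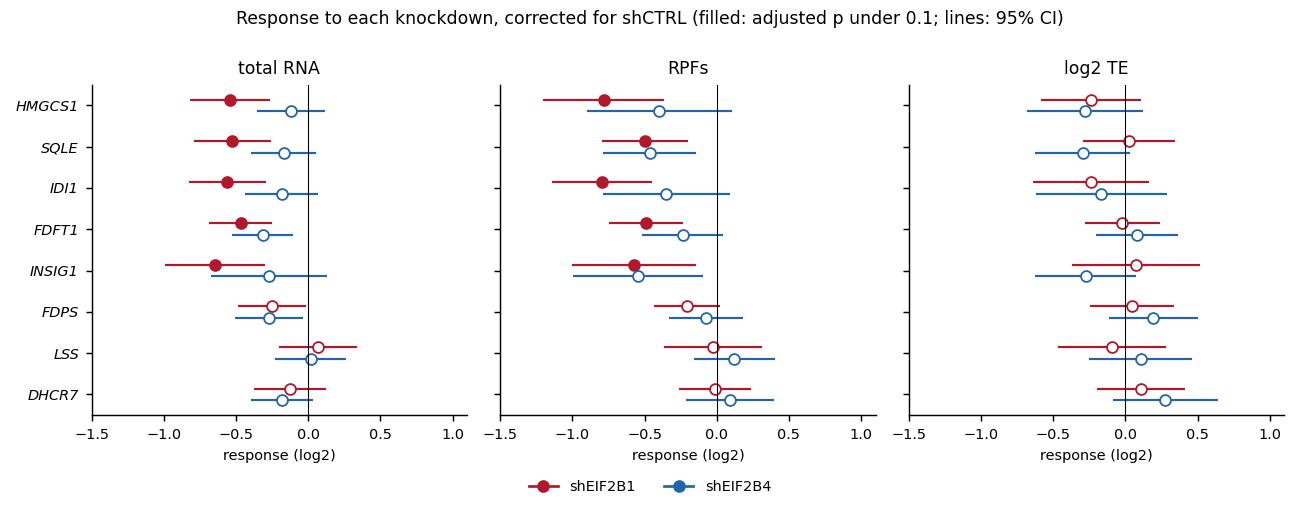
Responses of the 8 genes (log2, horizontal axes) in total RNA, RPFs and log2 TE, with shEIF2B1 in red and shEIF2B4 in blue. Points are fitted means from 16 libraries, lines are 95% confidence intervals, and filled points passed an adjusted p of 0.1. All filled points belong to shEIF2B1, in total RNA and RPFs, and none is in TE.

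The responses to the 2 knockdowns did not differ beyond the test for any member. By limma 0 of 8 were called in total RNA, RPFs or TE, where 0.1%, 0.00897% and 0% of all genes were called. At an unadjusted p under 0.05 there were 3 members in total RNA, 1 in RPFs and 0 in TE. The 3 in total RNA were HMGCS1, IDI1 and SQLE, whose shEIF2B1 response was more negative by 0.43 (95% CI of the signed difference -0.67 to -0.18), 0.37 (-0.63 to -0.12) and 0.36 (-0.60 to -0.11), with adjusted p between 0.21 and 0.28. In RPFs the difference was -0.45 for IDI1 (-0.86 to -0.03), -0.03 for SQLE (-0.35 to 0.28) and -0.03 for INSIG1 (-0.48 to 0.42). Both responses use the same shCTRL libraries.

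No TE response passed the test. The TE responses to shEIF2B1 ran from -0.24, for HMGCS1 and IDI1, to 0.11, for DHCR7, and those to shEIF2B4 from -0.30, for SQLE, to 0.28, again for DHCR7. For shEIF2B4, 0 of 8 were called by limma and 0 had an unadjusted p under 0.05, where 0.0923% of all genes were called. The interval of the TE response to shEIF2B1 reached from -0.59 to 0.11 for HMGCS1 and from -0.64 to 0.16 for IDI1, so these values do not exclude a TE response of that size. The log2 TE of SQLE, the member with the largest response, was -1.26, -0.55, -0.40 and -0.58 in uninduced and -1.20, -0.81, -0.88 and -0.80 in induced shEIF2B4 cells. In shEIF2B1 it was -0.92, -0.46, -0.63 and -0.67 uninduced and -0.91, -0.15, -0.53 and -0.71 induced. In shCTRL it was -0.98, -0.67, -0.61 and -0.83 uninduced and -1.02, -0.74, -0.44 and -0.61 induced. In every line the treatments overlapped, and replicate 1 had the lowest value in every group.

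The lines already differed before induction, which matters for a corrected response. In uninduced shEIF2B1 cells the RPFs of HMGCS1, SQLE, IDI1 and FDFT1 were higher than in uninduced shCTRL cells, by 0.52, 0.31, 0.61 and 0.19 (adjusted p = 0.00023, 0.0051, 7.1e-05 and 0.049), and those of DHCR7 were lower, by 0.27 (adjusted p = 0.0072). These are 5 of 8 members, where 54.1% of all genes were called, 29% higher and 25.1% lower. In total RNA 0 of 8 were called by limma, where 1.4% of all genes were, and 2 of 8, SQLE at 0.21 and FDFT1 at 0.20, had an unadjusted p under 0.05. The TE of HMGCS1 (0.38) and IDI1 (0.50) was higher and that of DHCR7 lower (-0.29) in uninduced shEIF2B1 cells, where 42.6% of all genes were called. EIF2B1 itself was lower in these uninduced cells, by 0.45 in RPFs (adjusted p = 0.00019) and 0.29 in total RNA (adjusted p = 0.029). In uninduced shEIF2B4 cells only FDPS was called, with RPFs lower by 0.33 (adjusted p = 0.092), where 13.9% of all genes were called, 12.4% were lower and the median of all genes was -0.13. That call was lost without replicate 2, 3 or 4, and 4 members were called without replicate 1, where 47.6% of all genes were called. In total RNA and TE of uninduced shEIF2B4 cells 0 of 8 were called by limma, with 1 and 4 at an unadjusted p under 0.05, where 2.32% and 0.554% of all genes were called.

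**Figure D4:**
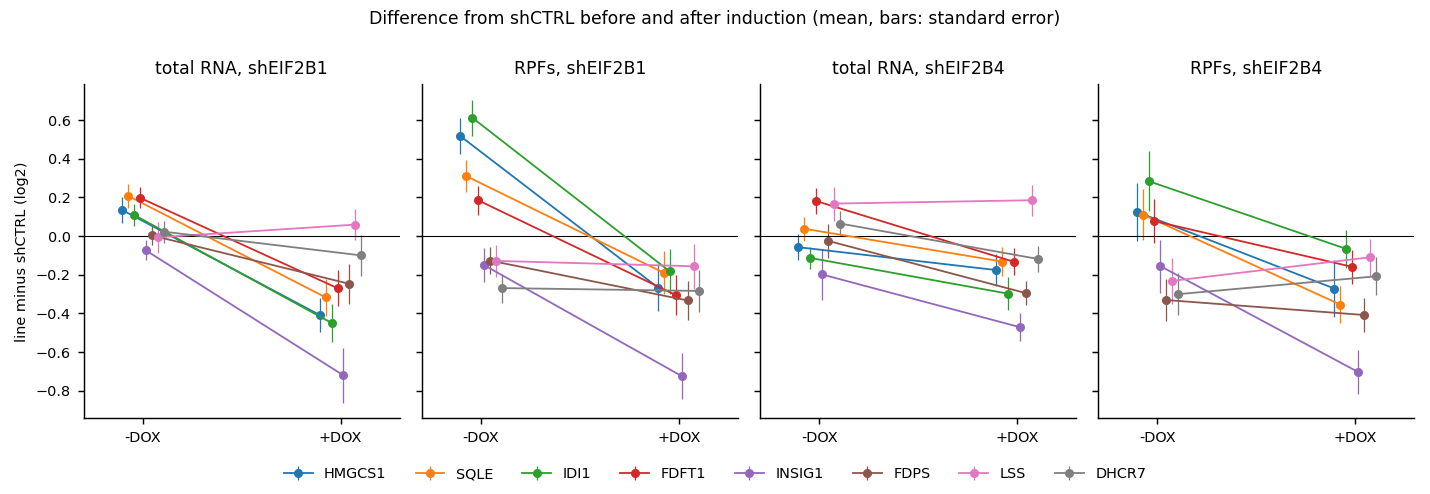
Each knockdown line minus shCTRL (log2, vertical axis), uninduced at left and induced at right of each panel, for the 8 genes in total RNA and RPFs. Points are fitted means, bars are standard errors, and lines join the same gene. INSIG1 has the lowest value of the 8 in all 4 panels after induction, and in RPFs of shEIF2B1 HMGCS1, SQLE, IDI1 and FDFT1 start above 0.

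Compared in induced cells alone, the set of genes below shCTRL changed. In total RNA, induced shEIF2B1 cells had less HMGCS1, SQLE, IDI1 and INSIG1 than induced shCTRL cells, by 0.41, 0.32, 0.45 and 0.72 (adjusted p = 0.021, 0.089, 0.021 and 0.012), where 2.7% of all genes were called lower. In RPFs FDFT1, INSIG1 and FDPS were lower, by 0.31, 0.72 and 0.33 (adjusted p = 0.071, 8.2e-05 and 0.042), where 4.81% were called lower. HMGCS1 (-0.27), SQLE (-0.19) and IDI1 (-0.18) did not pass in RPFs. Of the RPF response of IDI1, -0.80, the greater part was thus the uninduced difference of 0.61. The same held for HMGCS1 and SQLE, with RPF responses of -0.78 and -0.50, but not for FDFT1 or INSIG1. Induced shEIF2B4 cells had lower total RNA of IDI1, INSIG1 and FDPS, by 0.30, 0.47 and 0.29, where 19.1% of all genes were called lower. They also had lower RPFs of SQLE, INSIG1 and FDPS, by 0.35, 0.70 and 0.41, where 25.3% of all genes were called lower. For shEIF2B4 the median difference of all genes was -0.04 in total RNA and -0.13 in RPFs. INSIG1 was called in all 4 of these comparisons and no other member was. This comparison was added after the values were seen.

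The 8 genes varied together across the 24 libraries once the replicate means were removed. The median Pearson r of the 28 pairs was 0.69 in total RNA and 0.56 in RPFs, while the median r of a member with the other genes was 0.00 and 0.10. The closest pairs were HMGCS1 with IDI1 in total RNA (r = 0.95) and HMGCS1 with SQLE in RPFs (r = 0.91). With the group means removed as well, the median fell to 0.14 in both, and INSIG1 ran against HMGCS1 in RPFs (r = -0.79) and against FDPS in total RNA (r = -0.80). The points share lysates and library normalization, and these correlations are descriptions. The genes outside the 8 whose week-centred profile was most like the mean of the 8 were TRIP13, KIF20A, AURKA, TNFRSF10D and RACGAP1 in total RNA (r = 0.96 to 0.93 over 24 libraries) and CDCA8, ASB4, KIF20A, NCAPH and ANLN in RPFs (r = 0.97 to 0.95).

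Beyond the 8, 9 of the other 15 enzymes of cholesterol synthesis fell in RPFs on shEIF2B1 induction, and 14 of 15 did not pass in total RNA. In RPFs 1, TM7SF2, was higher, and in total RNA 1 of 15, MSMO1, was lower, beside 15.3% and 1.13% of all genes called lower. MSMO1, which oxidises methyl groups of the sterol ring, had a response of -0.95 in RPFs (adjusted p = 0.00020) and -0.66 in total RNA (adjusted p = 0.053). The RPF responses of SC5D and CYP51A1, other sterol enzymes, were -0.63 and -0.58 (adjusted p = 0.0067 and 0.0069), and their total RNA responses of -0.16 and -0.22 did not pass. With shEIF2B4, 0 of 15 were called by limma in either measure, and 4 in RPFs and 1 in total RNA had an unadjusted p under 0.05.

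In the export list, ABCG1 and ABCA1 rose in both measures on shEIF2B1 induction. Of 5 genes, 3 were higher in RPFs on shEIF2B1 induction, where 12% of all genes were called higher, and 2 in total RNA, where 2.34% were. The log2 RPF value of ABCG1, a cholesterol exporter, was 5.38, 4.60, 5.24 and 4.44 in uninduced and 7.45, 7.30, 7.99 and 6.48 in induced shEIF2B1 cells, with no overlap. Its response was 1.85 in RPFs (adjusted p = 0.00038), 0.93 in total RNA (adjusted p = 0.0018) and 0.92 in TE (adjusted p = 0.037). ABCG1 also rose with shEIF2B4, by 1.54 in RPFs (adjusted p = 0.018) and 0.57 in total RNA (adjusted p = 0.0092). ABCA1, another exporter, had responses to shEIF2B1 of 1.52 in RPFs (adjusted p = 0.0036), 0.75 in total RNA (adjusted p = 0.022) and 0.77 in TE (adjusted p = 0.071), and was higher with DOX in shCTRL RPFs too, by 0.68. NR1H2, which encodes LXRβ, rose in RPFs by 0.56 (adjusted p = 0.0065) and in TE by 0.56 (adjusted p = 0.070) with shEIF2B1, and NR1H3, which encodes LXRα, was lower in total RNA with shEIF2B4, by 0.42 (adjusted p = 0.057).

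The remaining lists gave fewer calls. Of 6 genes of SREBP activation and sterol sensing, SREBF1 (0.49) and SCAP (0.35) were higher and INSIG2 (-0.34) lower in RPFs with shEIF2B1 (adjusted p = 0.075, 0.056 and 0.084), a call for 3 of 6 where 27.3% of all genes were called, and 0 of 6 were called by limma in total RNA, with 1 at an unadjusted p under 0.05. Of 8 uptake and transport genes, STARD4, a carrier of cholesterol between membranes, was lower in RPFs with shEIF2B1, by 0.64 (adjusted p = 0.012). In total RNA with shEIF2B4, SCARB1, a lipoprotein receptor, was lower by 0.44 (adjusted p = 0.056). Of 8 fatty acid synthesis genes, ACLY was lower in total RNA with shEIF2B1, by 0.41 (adjusted p = 0.072), and FASN with shEIF2B4, by 0.39 (adjusted p = 0.046), and 0 of 8 were called by limma in RPFs with either, with 1 at an unadjusted p under 0.05 for each. Over the 5 lists, 17 of 42 genes were called in RPFs and 4 of 42 in total RNA with shEIF2B1, and 1 and 5 with shEIF2B4, where 27.3%, 3.47%, 2.75% and 5.4% of all genes were called. These counts moved with single replicates, as did the share of all genes called. RPF calls with shEIF2B1 were 9 without replicate 1 or 4, where 14% and 13.7% of all genes were called. TE calls with shEIF2B1, 3 in all, were 9 without replicate 2, where 12.6% of all genes were called. They were 0 without any other, where 0% to 0.397% of all genes were. Total RNA calls were 1 without replicate 1 or 3, where 0.929% and 1.74% of all genes were called. They rose to 7 without replicate 2, where 5.4% were. With shEIF2B4, leaving out replicate 1 gave 10 calls in RPFs and 9 in TE, against 1 and 0 with all replicates. Without replicate 1, 14.5% and 13.1% of all genes were called. Total RNA calls with shEIF2B4 fell to 1 without replicate 2, 2 without replicate 3 and 0 without replicate 4. There 2.03%, 3.11% and 1.82% of all genes were called.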

How the data were processed

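RPFs and total cytoplasmic RNA were analysed in 48 libraries, with groups and replicates taken from the sample labels. The authors trimmed reads with cutadapt 1.18, aligned total RNA to GENCODE v38 protein-coding transcripts with bowtie2, quantified it with RSEM and used the most expressed transcript of each gene, on whose coding sequence RPFs were counted. For replicate 3 they joined 2 sequencing runs of the same library. The authors deposited regularized log2 values from DESeq2, scaled apart for the 2 assays, so a depth, a counting interval or a count test cannot be given. The regularization pulls weakly covered genes towards their mean, which can understate differences.

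Here limma 3.58.1 in R 4.3.3 (lmFit, eBayes with a mean-variance trend, two-sided) was fitted to all genes with replicate as a block, shRNA, DOX and their product, on the 16 libraries of a knockdown and shCTRL, with Benjamini-Hochberg adjustment over all genes and a threshold of 0.1. Knockdowns were compared over 24 lysates, and shCTRL treatments over 8 libraries. The series' design text and the study's methods place the replicates in separate weeks, each processed on its own. With the replicate as a block, p-values set a difference within weeks against its variation between weeks. The spread of levels between weeks is removed. The pairing was checked: of 60 pairs of same-numbered libraries, 52 in RPFs, 37 in total RNA and 55 in TE had deviations correlated over 0.1. Scripts were tested on simulated data.

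The 8 genes, the 5 lists (42 genes) and the tests were chosen with earlier results of these data known. Named were all 8 genes and, since 22 list genes were called in a response, the 4 called genes of each list with the largest response (all where fewer). Results of 2 list genes are counted but not reported here by name. TM7SF2 was named after its values were seen. Positions are from GENCODE v29 and promoters from RefSeq, both on GRCh38. Alternatives were no block, no trend, the lowest 25% of genes left out, median centring, all 24 libraries, no shCTRL correction, a threshold of 0.05, each replicate left out and induced libraries only. Figures were drawn with matplotlib 3.10.9.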

Additional observations from a re-analysis of the deposited data

Results flagged for a closer look

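Of 144 sets of 4 replicates (8 genes, 6 groups, 3 measures), 8 had 1 replicate far from the other 3, and chance alone gives about 1 in 20. In uninduced shEIF2B4 cells, replicate 1 stood apart 4 times, with a log2 RPF value of 6.61 for HMGCS1 (others 7.46 to 7.50) and 8.34 for SQLE (others 8.90 to 9.01), and a log2 TE of -1.17 for HMGCS1 (others -0.32 to -0.22) and 2.63 for DHCR7 (others 1.92 to 2.02). Replicate 3 of the same group had the lowest log2 total RNA value of IDI1, 9.42 (others 9.78 to 9.82). In shEIF2B1, HMGCS1 had a log2 total RNA value of 7.78 in uninduced replicate 1 (others 8.00 to 8.03) and a log2 TE of -0.14 in induced replicate 2 (others -0.59 to -0.53). In uninduced shCTRL, FDPS had a log2 total RNA value of 9.74 in replicate 3 (others 9.90 to 9.93). The cause was not tested. The difference between the knockdowns was tested for every member and none was called.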

How the results depend on the processing

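Member responses were recomputed under 12 alternatives, and no member called in the main analysis reversed under any of them. Leaving out the lowest 25% of genes also left out LSS in total RNA and IDI1 in TE. In TE that filter acted on the mean log2 TE. Without the replicate block the responses were the same size, but fewer genes were called. For shEIF2B1, members called fell to 0 in RPFs (3 at an unadjusted p under 0.05) and 1 in total RNA (6 unadjusted). There 50 of 11145 and 191 of 11947 genes were called. Members fell to 0 for the shCTRL change in RPFs and total RNA, where 0 and 9 of all genes were called. They fell to 0 for uninduced shEIF2B1 in RPFs and TE, where 0 genes were called. For uninduced shEIF2B4 in RPFs they also fell to 0, where 1 gene was called. Pathway calls without the block were 0 in RPFs for either knockdown and 0 in TE for shEIF2B1. In total RNA they were 2 for shEIF2B1 and 1 for shEIF2B4. Of all genes, 0 were then called in TE for shEIF2B1, and 36 in RPFs and 349 in total RNA for shEIF2B4. With no shCTRL correction, 8 members were called in RPFs for shEIF2B1, and 6 in RPFs and 7 in total RNA for shEIF2B4. Pathway calls were 27, 21 and 8 (RPFs, total RNA, TE) for shEIF2B1. There 5507 of 11145, 4104 of 11947 and 1857 of 10836 genes were called. For shEIF2B4 they were 22, 19 and 3, where 2655, 4112 and 673 of all genes were called. With induced libraries only, an alternative added after the values were seen, 3 members were called in RPFs for each knockdown. For shEIF2B4, 3 were called in total RNA, and pathway calls were 27, 17 and 1. Of all genes, 1166 were called in RPFs for shEIF2B1, and 3277, 3583 and 328 (RPFs, total RNA, TE) for shEIF2B4. With the threshold at 0.05 there were 0 members for shCTRL in RPFs and total RNA and for uninduced shEIF2B4 in RPFs. There 274, 41 and 77 of all genes were called. Pathway calls at 0.05 were 11 in RPFs, 2 in total RNA and 1 in TE for shEIF2B1. For shEIF2B4 they were 2 in total RNA. Of all genes, 1963, 209 and 241 were called for shEIF2B1 and 374 in total RNA for shEIF2B4. For shEIF2B4 in total RNA, 1 member was called without the lowest 25% of genes, with median centring or over all 24 libraries. There 559 of 8960, 643 of 11947 and 536 of 11947 genes were called. Uninduced shEIF2B4 in RPFs gave 0 without the lowest 25% of genes, with median centring or without the trend. There 228 of 8358, 17 of 11145 and 1502 of 11145 genes were called. In shCTRL total RNA 0 members were called without the trend, where 395 of 11947 genes were called. Without the lowest 25% of genes 2 pathway genes were called in total RNA for shEIF2B1, where 305 of 8960 genes were called. Over all 24 libraries there were 2 in RPFs for shEIF2B4 and 0 in TE for shEIF2B1. There 490 of 11145 and 44 of 10836 genes were called. Some of these settings use smaller samples or changed contrasts, and the causes were not tested.

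Leaving out each replicate gave, for shEIF2B1, 3 to 5 members by RPFs and 0 to 5 by total RNA, 0 to 3 in RPFs for shEIF2B4, for shCTRL 0 to 4 by RPFs and 0 to 2 by total RNA, 0 to 4 in RPFs and 0 to 3 in TE for uninduced shEIF2B4, and 0 to 1 in total RNA for uninduced shEIF2B1. The highest shCTRL and uninduced shEIF2B4 counts came without replicate 1. In RPFs 31.6% and 47.6% of all genes were called there, and at most 0.0359% and 1.56% without any other. Pathway calls for shEIF2B1 ranged from 9 to 16 in RPFs, 1 to 7 in total RNA and 0 to 9 in TE. For shEIF2B4 they ranged from 0 to 10, 0 to 4 and 0 to 9. The share of all genes called ranged from 13.7% to 24.4%, 0.929% to 5.4% and 0% to 12.6% for shEIF2B1. For shEIF2B4 it ranged from 0.386% to 14.5%, 1.82% to 4.15% and 0% to 13.1%.

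Reversals all concerned responses that were not called. With induced libraries only, RPF responses to shEIF2B4 were -0.11 for LSS and -0.21 for DHCR7, TE responses to shEIF2B1 were 0.14 for HMGCS1, 0.27 for IDI1, -0.0035 for INSIG1, -0.086 for FDPS and -0.18 for DHCR7, and TE responses to shEIF2B4 were 0.23 for IDI1, -0.026 for FDFT1, -0.11 for FDPS, -0.30 for LSS and -0.090 for DHCR7. With median centring LSS and DHCR7 were 0.024 and 0.037 in RPFs for shEIF2B1, LSS was -0.0047 in total RNA for shEIF2B4 and FDFT1 was 0.012 in TE for shEIF2B1. With no shCTRL correction, shEIF2B4 gave -0.10 for LSS and -0.30 for DHCR7 in RPFs, -0.12 for LSS in total RNA and -0.032 for FDFT1 in TE, and shEIF2B1 gave -0.069 for LSS in total RNA and -0.043 for FDPS and -0.13 for DHCR7 in TE. Without 1 replicate, RPF responses to shEIF2B1 ranged from -0.17 to 0.096 for LSS and from -0.069 to 0.053 for DHCR7, TE responses to shEIF2B1 from -0.093 to 0.12 for SQLE, -0.15 to 0.22 for INSIG1, -0.065 to 0.11 for FDPS and -0.34 to 0.031 for LSS, and responses to shEIF2B4 from -0.092 to 0.19 for LSS in total RNA, -0.42 to 0.040 for IDI1 in TE and -0.084 to 0.28 for LSS in TE. Depth is unknown, and 4 replicates limit what can be detected.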
